A study of Homo sapiens with 12 samples.

Results

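The comparison described here set KMS11 cells carrying an empty vector (Vector) against KMS11 cells carrying a control short hairpin (shControl). KMS11 is an established human multiple myeloma cell line, a malignant plasma cell line grown in culture. Both groups were labelled wild type and untreated, so neither was meant to change STK17B, the kinase that the study perturbs. There were 4 such libraries, 2 per group, among 12 in the series. The other 8 libraries came from cells overexpressing an STK17B cDNA (overexpression), cells with either of 2 hairpins against STK17B (sh1 and sh2), and cells given an STK17B inhibitor (inhibitor), with 2 libraries each. By the series design, the inhibitor was given to cells with the control hairpin. Neither the vector backbones, the hairpin sequence, the selection nor the number of clones is given in the labels. Whether paired replicates came from separate cultures is likewise not stated, so p-values here reflect library-to-library spread that may be technical.

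RNA was selected for poly(A) tails and sequenced with strand information. The deposited values are TPM, relative transcript abundances that scale every library to the same total, so sequencing depth is unknown. Of 29607 genes in the table, 12731 reached 1 TPM in at least 2 of the 12 libraries and were compared. Differences are on the log2(TPM + 1) scale, Vector minus shControl, so a positive value means higher in Vector cells. That scale makes changes of low genes look smaller. A gene was called when its adjusted p in the limma fit was below 0.05. The control columns carry the names ctrl9 and ctrl1 and not the group names; ctrl9 was taken as Vector and ctrl1 as shControl because libraries 9 and 1 carry those groups in the labels. This is an inference, and with the columns exchanged every direction below would turn round.

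An empty vector and a control hairpin stand as baselines for different kinds of experiment. A hairpin is transcribed and then cut by Drosha and Dicer, the nucleases that make microRNAs, and the product is loaded onto Argonaute proteins, whereas an empty overexpression vector carries no such RNA. Delivered nucleic acids can be sensed in cells, and the interferon response is the best known outcome of that. Plasma cells make and secrete large amounts of antibody chains and depend on the proteasome, protein folding in the endoplasmic reticulum and lysosomal degradation.

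The Vector and shControl cells differed in a large number of genes, nearly all by a small amount. Of the 12731 genes, 3724 (29.3%) were called, with 2723 (21.4%) higher and 1001 (7.86%) lower in Vector cells. The median size of a called difference was 0.30 log2 units, and 3036 of the called genes differed by less than 0.5. A difference of at least 1 unit was found for 83 called genes that were higher (0.652% of those tested) and 6 that were lower (0.0471%) in Vector cells. In these bulk samples a change in the make-up of the cells and a change in RNA per cell cannot be told apart. At an unadjusted p below 0.05 there were 5255 genes. The median absolute difference between the Vector and shControl means was 0.15, against 0.074 between the 2 Vector libraries and 0.064 between the 2 shControl libraries.

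The direction of these calls leaned upward as the values were deposited. The median difference over all tested genes was 0.085, and 73.1% of the calls were higher in Vector cells. After rescaling by the median of ratios, which sets the typical gene level across libraries, 1874 genes were higher and 1766 lower (51.5% higher), and after quantile normalization 1549 were higher and 1651 lower (48.4% higher). Small differences in either direction are best read relative to that shift of 0.085. In number of detected genes, the Vector libraries held 12027 and 12096 genes at 1 TPM or more, and the shControl libraries 11681 and 11717. The 20 most abundant genes took between 16.2% and 16.4% of the TPM in all 4 libraries.

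**Figure D1:**
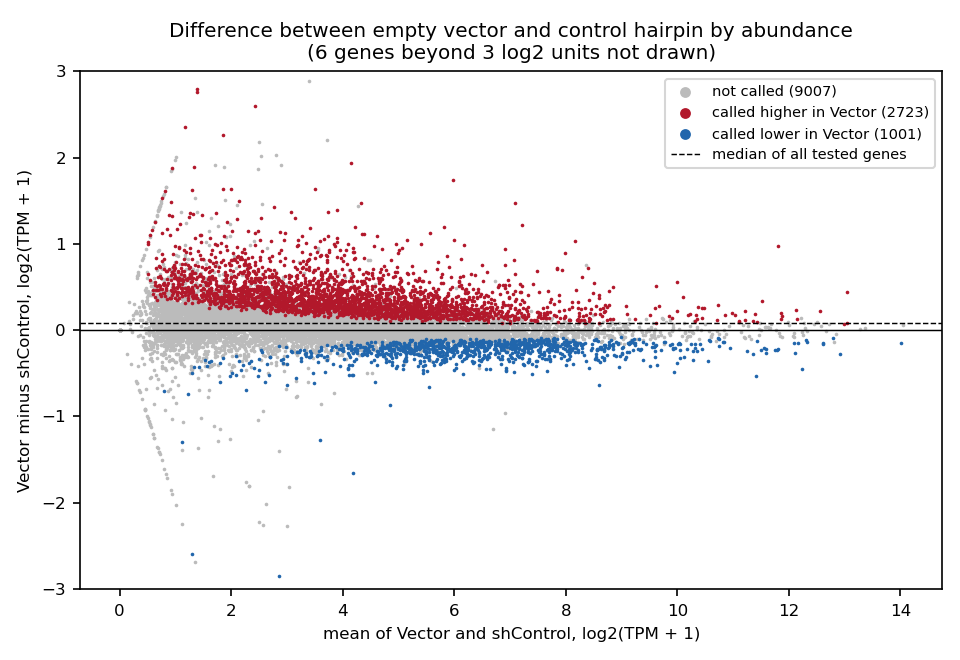
Each point is 1 of 12731 tested genes; the horizontal axis is the mean of the Vector and shControl groups and the vertical axis is Vector minus shControl, both in log2(TPM + 1). Red points (2723) were called higher and blue points (1001) lower in Vector cells, and most lie within 0.5 units of 0; 6 genes beyond 3 units are not drawn.

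STK17B itself did not pass the test. It had 28.2 and 31.5 TPM in the Vector libraries and 27.1 and 27.4 TPM in the shControl libraries, a difference of 0.12 ± 0.08 (SE; adjusted p = 0.30 by limma). The paralog STK17A had 30.7 and 29.3 TPM in Vector cells and 34.7 and 33.9 TPM in shControl cells, and was lower in Vector cells by a small amount (-0.19, adjusted p = 0.015). That call was lost without Vector replicate 2 (-0.15, adjusted p = 0.10) and without shControl replicate 1 (-0.17, adjusted p = 0.088). DAPK1, the founding member of this kinase family, was higher, with 13.9 and 14.0 TPM in Vector cells and 10.9 and 10.7 TPM in shControl cells. DAPK3 had 42.5 and 38.0 TPM in Vector cells and 44.8 and 42.2 TPM in shControl cells and did not pass.

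Of 15 tested genes that make and use small RNAs, 1 rose and 1 fell in Vector cells (6.67% each, against 21.4% and 7.86% of all tested genes). AGO4, an Argonaute protein, had 3.29 and 3.38 TPM in Vector cells and 2.47 and 2.47 TPM in shControl cells (0.32, adjusted p = 0.047), and this call was lost without any single one of the 4 libraries. RAN, the small GTPase that drives nuclear export of microRNA precursors, fell to 1193 and 1184 TPM in Vector cells, against 1390 and 1356 TPM in shControl cells. DROSHA (0.12, adjusted p = 0.061) and DICER1 (0.20, adjusted p = 0.17) did not pass.

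The inducible heat shock genes were among those that differed most. HSPA6, HSPA1A and HSPA1B encode stress-inducible HSP70 chaperones, which heat shock factor HSF1 switches on when proteins misfold. HSPA6 had 6.81 and 7.01 TPM in the Vector libraries and 0.625 and 0.665 TPM in the shControl libraries, a difference of 2.27 ± 0.13 (SE; adjusted p = 9.2e-06). HSPA1B had 115 and 114 TPM in the Vector libraries and 34.6 and 32.8 TPM in the shControl libraries, a difference of 1.74 ± 0.07 (SE; adjusted p = 9.7e-07). Both Vector libraries lay far above both shControl libraries for each gene.

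HSPA1A and HSPA1B lie close together in the HLA region of GRCh38 chromosome 6, from 31815464 to 31817946 and from 31827735 to 31830255 on the plus strand, and their coding sequences are nearly identical, so reads may be split between them. HSPA1A had 23.4 and 23.2 TPM in Vector cells and 9.68 and 6.94 TPM in shControl cells. Summed, the pair had 138.7 and 136.8 TPM in Vector cells and 44.28 and 39.74 TPM in shControl cells. No other group approached the Vector level, the sums of the 8 remaining libraries lying between 37.37 and 46.84 TPM. HSPA6 is on chromosome 1, from 161524540 to 161526910 on the plus strand, and in the overexpression cells it had 1.66 and 2.22 TPM, above the 0.151 to 0.543 TPM of the hairpin and inhibitor libraries.

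The promoters of these HSP70 genes are shown because the heat shock element is the sequence by which HSF1 binds its targets. The 250 bases before each gene start (RefSeq, GRCh38.p14) are at chr6:31815293-31815542, chr6:31827488-31827737 and chr1:161524290-161524539, all on the plus strand, with capitals marking the element core GAANNTTC.
HSPA1A: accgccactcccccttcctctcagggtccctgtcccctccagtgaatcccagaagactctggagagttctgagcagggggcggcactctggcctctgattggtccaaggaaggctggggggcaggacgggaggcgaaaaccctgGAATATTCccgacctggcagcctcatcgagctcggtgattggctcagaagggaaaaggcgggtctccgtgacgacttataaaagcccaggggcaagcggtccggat
HSPA1B: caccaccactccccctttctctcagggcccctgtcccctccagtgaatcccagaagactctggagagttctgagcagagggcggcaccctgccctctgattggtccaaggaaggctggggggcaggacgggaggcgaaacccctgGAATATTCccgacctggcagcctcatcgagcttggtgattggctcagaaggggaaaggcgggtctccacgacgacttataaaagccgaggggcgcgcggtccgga
HSPA6: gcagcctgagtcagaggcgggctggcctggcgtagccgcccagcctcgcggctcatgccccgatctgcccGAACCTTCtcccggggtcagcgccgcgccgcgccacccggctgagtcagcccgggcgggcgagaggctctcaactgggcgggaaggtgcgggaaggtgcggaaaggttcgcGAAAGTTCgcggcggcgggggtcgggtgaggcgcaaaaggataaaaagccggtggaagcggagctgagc
The core was searched on both strands in the promoter table, which matched 9640 of the tested genes. HSPA1A and HSPA1B each held it once, 106 and 105 bases before the RefSeq start, and HSPA6 held it at 180 and 69 bases before the RefSeq start. The GENCODE starts of HSPA1A (31815464) and HSPA1B (31827735) given above lie inside these windows. Distances from those starts would be shorter. It was present in 3.99% of the 9640 promoters and in 36.8% (7 of 19) of those of the heat shock list, and this motif was chosen after the values were seen.

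The wider chaperone list did not move with those genes. Of 21 tested members, 4 rose and 5 fell in Vector cells (19.0% and 23.8%, against 21.4% and 7.86% of all tested genes), with a median of -0.086. Chaperone genes are abundant, with a list median of 7.40 in Vector cells on log2(TPM + 1). In the highest of 5 equal abundance groups of all tested genes 19.7% rose and 25.0% fell, so both shares were near those of abundant genes. The number of chaperone genes that fell changed when single libraries were left out and was 10 after the median of ratios. The other risers were DNAJB1, an HSP40 cochaperone of HSP70, with 91.6 and 91.8 TPM in Vector cells and 61.4 and 64.7 TPM in shControl cells (0.53), and BAG3, a nucleotide exchange factor of HSP70, with 16.3 and 17.0 TPM in Vector cells and 13.5 and 13.6 TPM in shControl cells (0.28). The 5 that fell included HSPA8, the constitutive HSP70 (-0.22), HSPE1 (-0.29) and HSPD1 (-0.16), the mitochondrial chaperonin pair, and FKBP4, an HSP90 cochaperone (-0.19). HSF1 (0.04, adjusted p = 0.52) and HSP90AA1 (-0.09, adjusted p = 0.10) did not pass.

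**Figure D2:**
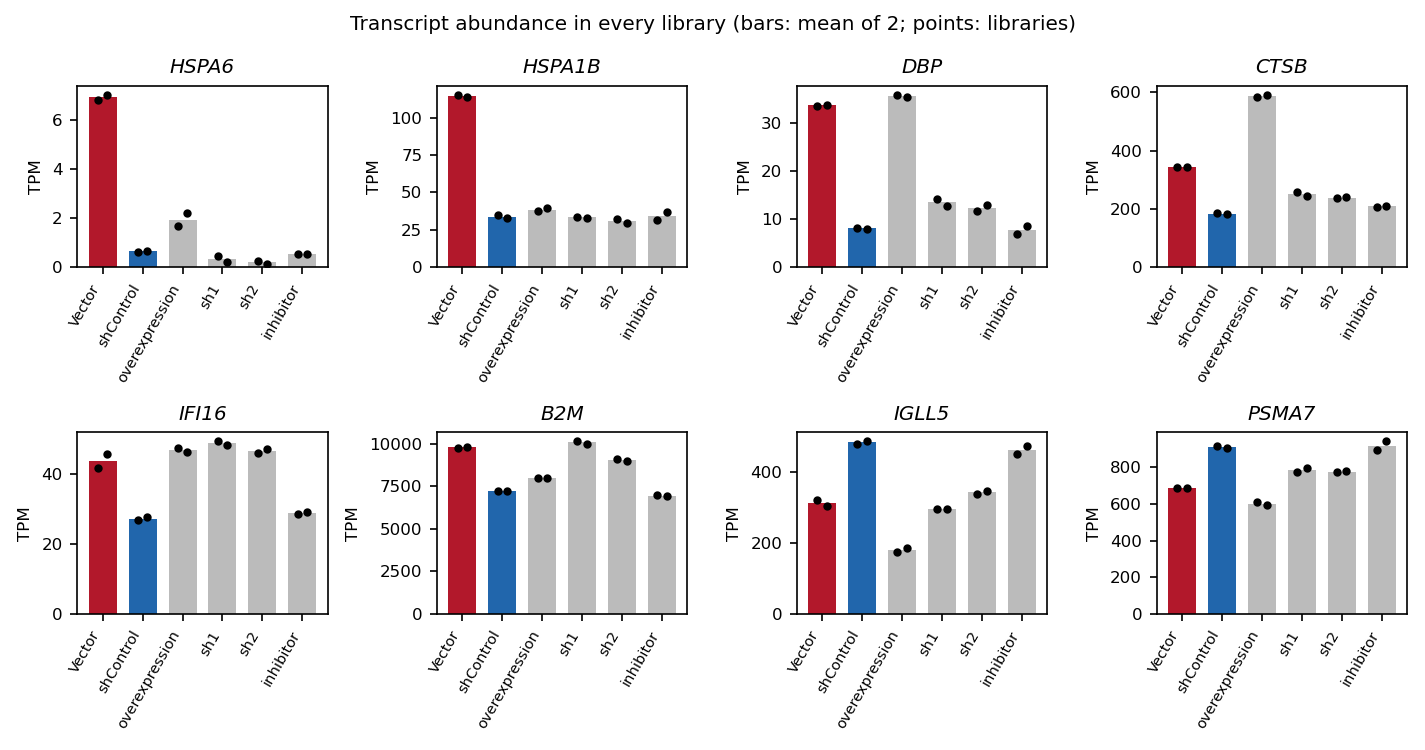
TPM in each of the 12 libraries for 8 genes; bars are means of 2 libraries, points are the libraries, red is Vector, blue is shControl and grey is the other groups. HSPA1B is high only in the 2 Vector libraries (115 and 114 TPM), whereas DBP is about as high in the overexpression libraries (35.9 and 35.4 TPM) as in the Vector libraries (33.6 and 33.6 TPM).

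DBP, a PAR-bZIP transcription factor that cycles with the circadian clock, ranked between HSPA6 and HSPA1B by size. It had 33.6 and 33.6 TPM in the Vector libraries and 8.10 and 8.01 TPM in the shControl libraries, a difference of 1.93 ± 0.09 (SE; adjusted p = 3.7e-06). The overexpression libraries were near the Vector level with 35.9 and 35.4 TPM, while sh1 had 14.2 and 12.8 TPM, sh2 had 11.6 and 12.9 TPM, and the inhibitor libraries had 6.86 and 8.60 TPM.

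Other clock genes were looked up after the value of DBP was seen. NR1D1, a repressor of the clock loop, had 23.4 and 24.7 TPM in Vector cells and 13.2 and 12.9 TPM in shControl cells (0.83, adjusted p = 1.6e-05). NR1D2 (0.45), TEF (0.37) and PER1 (0.32) also rose, but each call was lost without at least 1 of the 4 libraries and after quantile normalization. CRY1 (-0.05), CRY2 (0.04), ARNTL (-0.02), CLOCK (0.20), PER2 (0.20), HLF (0.25), BHLHE40 (0.08) and BHLHE41 (0.26) did not pass. The labels give no time of harvest.

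Several other protein-coding genes differed by more than 1 log2 unit with no overlap between libraries. CYP1A1, a cytochrome P450 that the aryl hydrocarbon receptor induces, had 4.81 and 5.94 TPM in Vector cells and 0.772 and 1.37 TPM in shControl cells (1.63). TEX19, normally a germ cell gene, had 10.14 and 10.05 TPM in Vector cells and 2.80 and 3.49 TPM in shControl cells (1.42). SAT1, which acetylates spermidine and spermine for their export and breakdown, had 12.7 and 13.1 TPM in Vector cells and 4.49 and 4.77 TPM in shControl cells (1.31). S100A4, a calcium-binding protein tied to cell motility, had 228 and 222 TPM in Vector cells and 101 and 91.3 TPM in shControl cells (1.22).

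Other genes among the 15 highest were ISYNA1, the inositol phosphate synthase (1.37), SYCE3, a synaptonemal complex protein (1.64), CCDC74B (1.63), EFCAB4A (1.498), RTN2 (1.301) and SAMD11 (1.29). CCDC74B has a close paralog, CCDC74A, that can share its reads; the sum of both was 52.34 and 49.85 TPM in Vector cells and 29.79 and 26.8 TPM in shControl cells. The readthrough gene GPR75-ASB3 was listed at 0 in both shControl libraries and had 7.19 and 4.85 TPM in Vector cells. It shares exons with ASB3, and the sum of the 2 was 14.06 and 14.84 TPM in Vector cells and 12.35 and 11.96 TPM in shControl cells, so its values are uncertain.

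Interferon-response genes were higher in Vector cells than in control-hairpin cells. Of 30 tested members of the type I interferon list, 15 rose (50%, against 21.4% of all tested genes) and 0 fell, with a median of 0.43 against 0.085 for all genes. IFI6, an interferon-induced mitochondrial protein, had 43.4 and 57.2 TPM in Vector cells and 33.3 and 31.5 TPM in shControl cells (0.61 ± 0.12 SE, adjusted p = 0.0051). EPSTI1 had 12.1 and 14.0 TPM in Vector cells and 8.33 and 8.80 TPM in shControl cells (0.55). PARP9, an ADP-ribosyltransferase partner in the response, had 1.63 and 2.51 TPM in Vector cells and 0.960 and 0.897 TPM in shControl cells (0.66).

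Vector replicate 2 stood above Vector replicate 1 in this list. It was the higher of the pair in 24 of 30 members (80%, median difference 0.18), against 60.5% of all tested genes. In shControl cells replicate 2 was the higher in 12 of 30 members. Without Vector replicate 2 the number of members that rose was 9 and the median 0.23, and without Vector replicate 1 it was 20 and 0.49. ISG15, a ubiquitin-like protein and a widely used interferon marker, was chosen after its values were seen and shows the split, with 12.9 and 25.2 TPM in Vector cells and 11.9 and 10.4 TPM in shControl cells (0.66, adjusted p = 0.057).

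The list of nucleic acid sensing genes moved with the interferon list in part. Of 21 tested genes for sensing double-stranded RNA and DNA, 10 rose and 1 fell in Vector cells (47.6% and 4.76%, against 21.4% and 7.86% of all tested genes). The list median was 0.21. After the median of ratios, and also after quantile normalization, 8 were higher and 1 lower. With Vector replicate 2 or either shControl library left out fewer rose. IFI16, a DNA sensor, had 41.8 and 45.9 TPM in Vector cells and 27.0 and 27.6 TPM in shControl cells (0.66 ± 0.05 SE, adjusted p = 2.4e-05). OASL (0.60) and OAS1 (0.58), of the oligoadenylate synthetase family that answers double-stranded RNA, rose as well. IKBKE, a kinase that activates IRF3, fell to 53.7 and 50.1 TPM in Vector cells, against 63.1 and 61.6 TPM in shControl cells.

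The other groups did not follow one order in these genes. IFI16 had 49.5 and 48.3 TPM in sh1 cells, 46.1 and 47.2 TPM in sh2 cells and 47.6 and 46.4 TPM in overexpression cells, all above the Vector libraries, and 28.5 and 29.2 TPM in inhibitor cells, next to the shControl libraries. IFI6 had 63.4 and 73.0 TPM in sh1 cells, 58.6 and 57.9 TPM in sh2 cells and 70.1 and 72.8 TPM in overexpression cells, and in inhibitor cells 30.4 and 35.7 TPM, again next to shControl. OASL, by contrast, was lower in sh1 cells (4.35 and 4.51 TPM), sh2 cells (3.74 and 3.63 TPM) and overexpression cells (3.73 and 3.54 TPM) than in Vector cells (7.94 and 7.62 TPM), while shControl cells had 4.45 and 5.14 TPM. The series design places the inhibitor on cells with the control hairpin.

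Antigen presentation by MHC class I was split. Of 19 tested members, 8 rose and 4 fell in Vector cells (42.1% and 21.1%, against 21.4% and 7.86% of all tested genes), with a median of 0.064. The list is abundant (median 7.48 in Vector cells on log2(TPM + 1)). In the highest of 5 equal abundance groups of all tested genes 19.7% rose and 25.0% fell. B2M, the invariant light chain of class I molecules, had 9760 and 9835 TPM in Vector cells and 7222 and 7246 TPM in shControl cells (0.44 ± 0.02 SE, adjusted p = 2.2e-06). HLA-E had 241 and 236 TPM in Vector cells and 183 and 189 TPM in shControl cells (0.36), and HLA-F had 111 and 110 TPM in Vector cells and 85.2 and 82.3 TPM in shControl cells (0.40). The members that fell included the peptide transporter subunit TAP2 (-0.17), the immunoproteasome subunit PSMB10 (-0.15) and the proteasome activator PSME2 (-0.20). TAP2 and PSMB10 lost their calls when single libraries were left out, and 2 of the 4 fell without shControl replicate 2.

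Promoters of IFI6 and B2M are shown for the interferon-stimulated response element, the sequence bound by the STAT and IRF factors of the pathway. The 250 bases before the start (RefSeq, GRCh38.p14) are at chr1:27672193-27672442 on the minus strand and chr15:44711267-44711516 on the plus strand, with capitals marking the element core, GAAA, any 2 bases and GAAA again, on either strand.
IFI6: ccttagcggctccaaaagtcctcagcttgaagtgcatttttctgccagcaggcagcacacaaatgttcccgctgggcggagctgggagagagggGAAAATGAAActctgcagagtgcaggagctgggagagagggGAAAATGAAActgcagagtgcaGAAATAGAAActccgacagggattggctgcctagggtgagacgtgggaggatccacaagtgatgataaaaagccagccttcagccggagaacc
B2M: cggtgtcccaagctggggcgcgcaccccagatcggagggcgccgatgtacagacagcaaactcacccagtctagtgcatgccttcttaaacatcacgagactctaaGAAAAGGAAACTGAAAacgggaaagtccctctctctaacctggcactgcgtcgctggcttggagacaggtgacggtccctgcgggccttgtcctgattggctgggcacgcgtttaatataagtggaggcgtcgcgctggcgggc
IFI6 held 3 cores and B2M held 2 that overlap. The core was present in 56.0% (14 of 25) of the promoters of the interferon list and in 2.41% of all 9640. Over all calls it was as frequent in the genes that rose (2.54%) as in those that fell (2.52%).

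Lysosomal genes formed the list with the largest share of higher calls. Of 39 tested genes for lysosome and autophagy, 27 rose (69.2%, against 21.4% of all tested genes) and 0 fell in Vector cells. The list median was 0.24. CTSB, the cysteine protease cathepsin B, had 344 and 345 TPM in Vector cells and 185 and 183 TPM in shControl cells (0.90 ± 0.03 SE, adjusted p = 4.0e-07). CTSZ, a carboxypeptidase of the same family, had 9.87 and 8.58 TPM in Vector cells and 4.59 and 4.14 TPM in shControl cells (0.93). NPC2, which carries cholesterol out of lysosomes, had 93.9 and 89.7 TPM in Vector cells and 54.2 and 49.1 TPM in shControl cells (0.82). CTSB was higher again in the overexpression libraries, with 584 and 592 TPM. After the median of ratios 20 members were higher and 2 lower. The E-box CACGTG, the core of the site that the lysosomal regulator TFEB binds, was in 27.6% (8 of 29) of the promoters of this list and in 9.36% of all promoters. It was also in 20.6% of the promoters of the glycolysis and hypoxia list, and in 9.26% of those of all genes that rose against 12.7% of those that fell.

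Of 26 tested p53 targets and CDK inhibitors, 12 rose and 3 fell in Vector cells (46.2% and 11.5%, against 21.4% and 7.86% of all tested genes), with a median of 0.17. After quantile normalization 9 were higher and 3 lower, with a median of 0.033. With the median of ratios 10 were higher and 4 lower, with a median of 0.098. TP53INP1, which promotes p53 activity and autophagy, had 28.2 and 29.8 TPM in Vector cells and 12.5 and 13.2 TPM in shControl cells (1.11). BBC3, the BH3-only protein PUMA, had 7.70 and 6.44 TPM in Vector cells and 2.995 and 3.55 TPM in shControl cells (0.92). GADD45A, a DNA-damage and stress gene, had 40.6 and 44.1 TPM in Vector cells and 23.2 and 21.6 TPM in shControl cells (0.89). The 3 that fell were BAX, the pore-forming death protein (-0.28), the CDK inhibitor CDKN2A (-0.23) and TRIAP1, an inhibitor of apoptosis (-0.25).

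JUN, an AP-1 transcription factor of the early stress response, had 20.8 and 20.3 TPM in Vector cells and 9.29 and 9.29 TPM in shControl cells (1.07 ± 0.06 SE, adjusted p = 7.2e-06). DDIT3, the stress transcription factor CHOP, had 20.7 and 21.5 TPM in Vector cells and 11.1 and 11.1 TPM in shControl cells (0.87). In the endoplasmic reticulum list 12 of 35 tested genes rose (34.3%) and 5 fell, with 6 rising without Vector replicate 2, 7 without shControl replicate 1 and 8 after the median of ratios. They included ERN1, the sensor kinase IRE1 (0.55), DERL3, a degradation factor of secretory cells (0.42), and DNAJC10, a folding reductase (0.41), while SDF2L1 (-0.36), DNAJB11 (-0.18) and SEC61B (-0.17) fell. Of 38 ATF4 targets, 3 rose and 4 fell (7.89% and 10.5%, against 21.4% and 7.86% of all tested genes). After the median of ratios 2 were higher and 12 lower, and after quantile normalization 1 was higher and 10 lower. With Vector replicate 2 or shControl replicate 2 left out, 1 rose and 2 fell, and without shControl replicate 1, 1 rose and 3 fell.

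Plasma cell and B cell genes went both ways. Of 22 tested plasma cell genes, 7 rose and 4 fell in Vector cells (31.8% and 18.2%, against 21.4% and 7.86% of all tested genes), with a median of 0.021. The list is abundant (median 6.73 in Vector cells on log2(TPM + 1)). In the highest of 5 equal abundance groups of all tested genes 19.7% rose and 25.0% fell. Plasma cell genes that fell included TNFRSF17, the surface antigen BCMA, with 237 and 234 TPM in Vector cells and 299 and 296 TPM in shControl cells (-0.34, adjusted p = 6.0e-05). SLAMF7, another surface antigen targeted in myeloma, had 15.2 and 16.5 TPM in Vector cells and 18.9 and 21.7 TPM in shControl cells (-0.34), and SDC1, the plasma cell marker CD138, had 51.5 and 51.2 TPM in Vector cells and 57.7 and 59.4 TPM in shControl cells (-0.19). The SLAMF7 and SDC1 calls were lost when some single libraries were left out, and 2 members fell without Vector replicate 1, 2 without Vector replicate 2 and 1 without shControl replicate 2. The balance also turned with scaling, to 4 higher and 7 lower with median-of-ratios scaling, and to 5 and 5 with quantile normalization. MZB1, a chaperone of antibody secretion, rose to 601 and 589 TPM in Vector cells, against 484 and 492 TPM in shControl cells, and CD28, a costimulatory receptor of myeloma cells, rose by 0.32.

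In the list of B cell markers with MHC class II, 7 of 17 tested members rose in Vector cells (41.2%, against 21.4% of all tested genes). SPIB, a B cell transcription factor, was the 1 that fell (5.88%, against 7.86%). After the median of ratios 3 were higher and 3 lower. CD37, a B cell tetraspanin, had 10.5 and 6.59 TPM in Vector cells and 3.61 and 3.53 TPM in shControl cells (1.03), with the 2 Vector libraries far apart. CD79B, a chain of the B cell receptor, rose by 0.34. SPIB fell by 0.20, a call lost without Vector replicate 1, Vector replicate 2 or shControl replicate 2. Of 17 myeloma oncogenes and dependencies, 6 rose (35.3%, against 21.4% of all tested genes) and 0 fell, or 4 and 2 after the median of ratios. MAF, a transcription factor that drives a subset of myelomas, had 166 and 178 TPM in Vector cells and 116 and 122 TPM in shControl cells (0.53). IKZF3, a target of lenalidomide-type drugs, had 63.7 and 68.9 TPM in Vector cells and 44.6 and 45.3 TPM in shControl cells (0.55), and IL6R, the receptor of the myeloma growth factor interleukin 6, had 29.3 and 28.9 TPM in Vector cells and 22.6 and 22.9 TPM in shControl cells (0.34).

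Proteasome subunits were lower in Vector cells. Of 32 tested subunits, 22 fell (68.8%, against 7.86% of all tested genes) and 0 rose, with a median of -0.17. The list is abundant (median 7.43 in Vector cells on log2(TPM + 1)). In the highest of 5 equal abundance groups of all tested genes 25.0% fell. PSMA7, of the catalytic core, had 690 and 686 TPM in Vector cells and 919 and 908 TPM in shControl cells (-0.41 ± 0.03 SE, adjusted p = 2.9e-05). PSMC3, an ATPase of the cap, had 146 and 134 TPM in Vector cells and 179 and 183 TPM in shControl cells (-0.37), and PSMB6, a catalytic subunit, had 175 and 164 TPM in Vector cells and 214 and 210 TPM in shControl cells (-0.32). The median stayed between -0.25 and -0.16 under the scalings and left-out libraries tried.

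Glycolysis and hypoxia genes were lower as well. Of 39 tested members, 23 fell (59.0%, against 7.86% of all tested genes) and 1 rose in Vector cells, with a median of -0.17. CA9, the carbonic anhydrase that hypoxia induces, had 2.35 and 2.23 TPM in Vector cells and 3.18 and 4.43 TPM in shControl cells (-0.54). PFKFB4, which regulates glycolytic flux, had 13.1 and 14.2 TPM in Vector cells and 19.1 and 18.9 TPM in shControl cells (-0.45), and SLC2A1, the glucose transporter GLUT1, had 27.0 and 24.6 TPM in Vector cells and 34.8 and 35.6 TPM in shControl cells (-0.43). GAPDH, among the most abundant transcripts, had 7061 and 6949 TPM in Vector cells and 8437 and 8479 TPM in shControl cells (-0.27). The exception was DDIT4, an inhibitor of mTOR signalling (0.12), whose call was lost after the median of ratios (0.042). The CA9 call was lost without Vector replicate 2 or shControl replicate 2. Members of this list were far higher in the overexpression cells, where CA9 had 29.1 and 28.1 TPM.

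Lists for growth and for nuclear-encoded mitochondrial proteins held more lower than higher calls in Vector cells. Of all tested genes 7.86% fell and 21.4% rose. Of 35 genes of ribosome biogenesis and MYC targets, 14 fell (40%) and 0 rose, among them RRP9, a processing factor of ribosomal RNA (-0.42), the polyamine enzyme ODC1 (-0.40) and BOP1 (-0.40), and 26 fell after the median of ratios. Of 77 mitochondrial ribosomal proteins, 35 fell (45.5%) and 2 rose, with MRPL52 (-0.38) and MRPL11 (-0.36) among those that fell. Without Vector replicate 2, 22 of the 77 fell. Of 73 nuclear-encoded respiratory chain subunits, 20 fell (27.4%) and 6 rose (8.22%). Fewer rose with any single library left out, and 1 after the median of ratios. These subunits are abundant, with a list median of 8.37 in Vector cells on log2(TPM + 1). In the highest of 5 equal abundance groups of all tested genes 25.0% fell and 19.7% rose, so the share of respiratory chain subunits that fell was near that of abundant genes. The ribosome biogenesis and mitochondrial ribosomal lists were abundant too, with medians of 6.35 and 6.33 in Vector cells. Their shares of 40% and 45.5% are thus to be set beside 25.0% as well as 7.86%. NDUFB9 of complex I had 284 and 297 TPM in Vector cells and 407 and 383 TPM in shControl cells (-0.44).

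The G1/S list of the cell cycle held only lower calls, and the G2/M list more higher than lower calls. Of 40 genes for the G1/S step and DNA replication, 19 fell (47.5%) and 0 rose in Vector cells. Of all tested genes 7.86% fell, and of the highest of 5 equal abundance groups 25.0%. The G1/S list is abundant, with a median of 5.97 in Vector cells on log2(TPM + 1). Among its members that fell, GINS2, a subunit of the replicative helicase, had 50.02 and 50.44 TPM in Vector cells and 63.4 and 66.3 TPM in shControl cells (-0.36). Fewer fell when single libraries were left out, 10 without Vector replicate 2, 10 without shControl replicate 1 and 11 without shControl replicate 2, and more, 29, after the median of ratios. Of 34 genes for G2/M and mitosis, 14 rose (41.2%, against 21.4% of all tested genes) and 2 fell (5.88%, against 7.86%). Fewer rose with any single library left out. The G2/M median was 0.11, near the 0.085 of all tested genes. After the median of ratios 11 were higher and 5 lower, with a median of 0.037. PTTG1, the securin that holds sister chromatids together, had 182 and 171 TPM in Vector cells and 120 and 126 TPM in shControl cells (0.51). The phosphatase CDC25B (0.47) and the spindle protein ASPM (0.42) rose, while CDC20 (-0.17) and PLK1 (-0.09) were the 2 that fell, both losing the call when single libraries were left out.

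**Figure D3:**
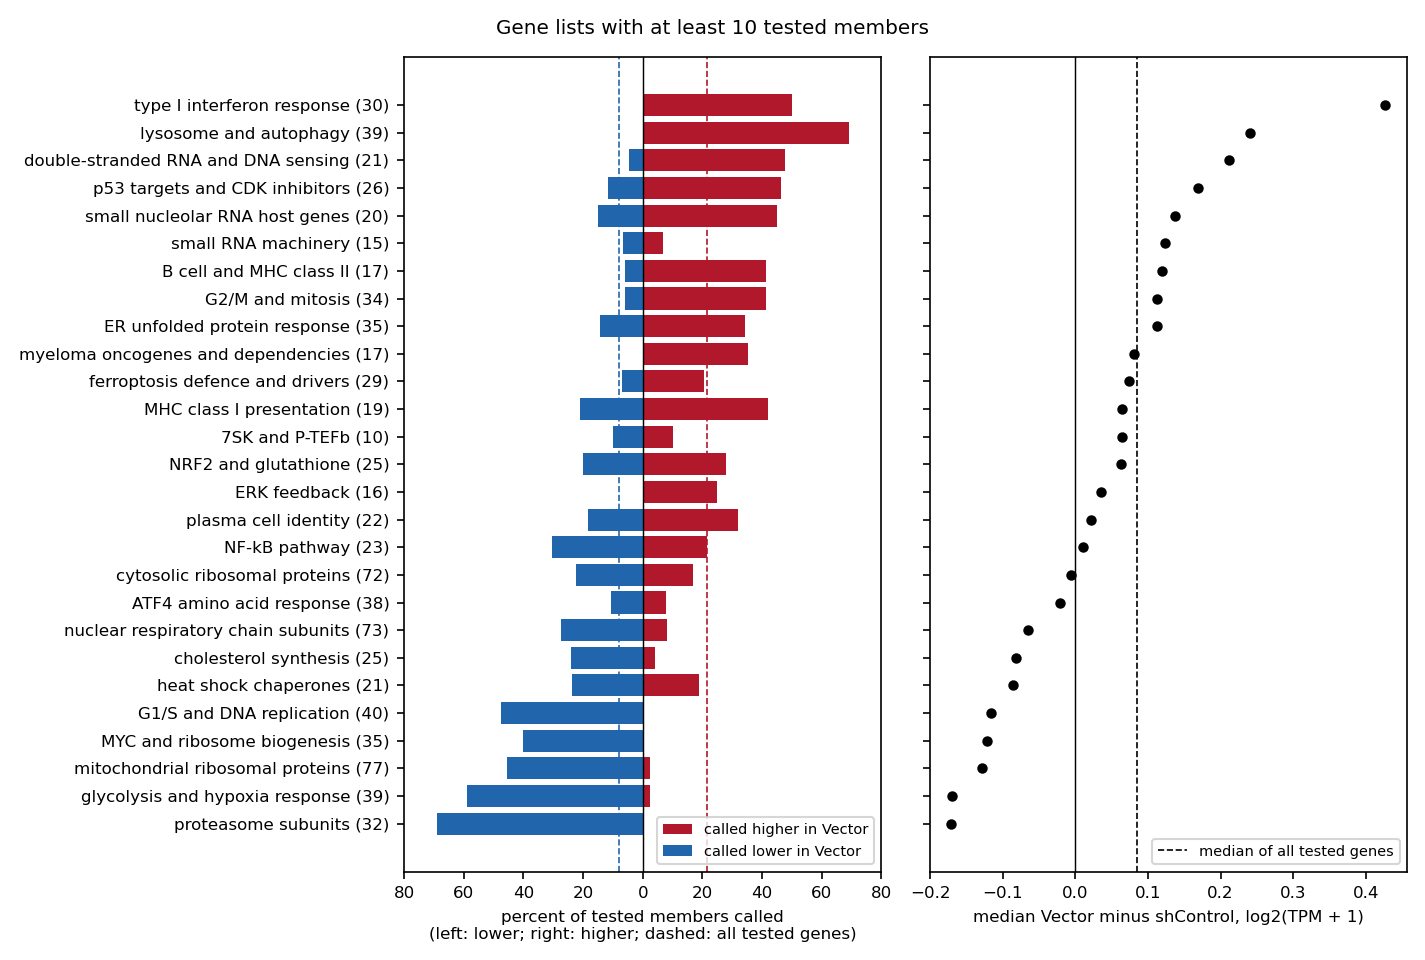
Gene lists with at least 10 tested members (number in brackets), ordered by median difference. The left panel gives the percent of members called higher (red, right) and lower (blue, left) in Vector cells, with dashed lines at 21.4% and 7.86% for all tested genes; the right panel gives the median of Vector minus shControl on log2(TPM + 1), from -0.17 for proteasome subunits to 0.43 for the interferon list, with a dashed line at the median of all tested genes.

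Of 72 cytosolic ribosomal proteins, 12 rose and 16 fell (16.7% and 22.2%, against 21.4% and 7.86% of all tested genes), with a median of -0.0056. These genes are abundant, with a list median of 11.68 in Vector cells on log2(TPM + 1). In the highest of 5 equal abundance groups of all tested genes 19.7% rose and 25.0% fell, so both shares were near those of abundant genes. Fewer ribosomal protein genes fell with any single library left out. The split of higher and lower calls depended on scaling, with 3 higher and 24 lower under the median of ratios, and 16 higher and 11 lower under quantile normalization. RPS29 had 2198 and 2336 TPM in Vector cells and 3165 and 3409 TPM in shControl cells (-0.54), and RPS21 had 4003 and 4272 TPM in Vector cells and 5772 and 5507 TPM in shControl cells (-0.45). RPL4 (0.23) and RPL31 (0.22) rose. Of 25 cholesterol synthesis genes, 1 rose (4.0%) and 6 fell (24.0%), and fewer fell with any single library left out. There were 14 lower under median-of-ratios scaling and 10 under quantile normalization. Of 25 NRF2 and glutathione genes, 7 rose and 5 fell (3 without shControl replicate 1), with the detoxifying hydrolase EPHX1 at 0.68 and KEAP1, the sensor that restrains NRF2, at -0.24.

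For the study's own theme, 6 of 29 tested ferroptosis genes rose and 2 fell in Vector cells (20.7% and 6.90%, close to the shares over all genes); 6 were higher and 5 lower after the median of ratios, and 0 fell when either shControl library was left out. ALOX5, a lipoxygenase that oxidises polyunsaturated fatty acids, had 2.87 and 3.55 TPM in Vector cells and 1.611 and 1.297 TPM in shControl cells (0.78). AIFM2, the suppressor FSP1, fell by 0.23, a call lost when single libraries were left out. Of 23 NF-kB genes, 5 rose and 7 fell (21.7% and 30.4%, against 21.4% and 7.86% of all tested genes). The inhibitor NFKBIA stood at -0.24 and TNFAIP2 at 1.01. In that list 3 rose without Vector replicate 1 or without shControl replicate 1, and 4 fell without Vector replicate 2, 3 without shControl replicate 1 and 2 without shControl replicate 2. Of 16 ERK feedback genes 4 rose (25%, against 21.4% of all tested genes) and 0 fell, with 2 rising without Vector replicate 1, 2 without Vector replicate 2 and 1 without shControl replicate 1. That list had 1 higher and 1 lower after the median of ratios, and 3 higher and 5 lower after quantile normalization. Of 10 genes around the 7SK RNA 1 rose and 1 fell (10% each, against 21.4% and 7.86% of all tested genes).

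The most strongly lower protein-coding genes were a mixed set. DNLZ, a zinc-finger helper of mitochondrial HSP70 on chromosome 9, had 22.0 and 18.7 TPM in Vector cells and 39.1 and 36.8 TPM in shControl cells (-0.87 ± 0.08 SE, adjusted p = 1.0e-04). CCR10, a chemokine receptor of plasma cells, had 37.8 and 35.0 TPM in Vector cells and 59.7 and 56.4 TPM in shControl cells (-0.66). IGLL5, an immunoglobulin lambda-like gene beside the lambda constant region that can take antibody reads, had 319 and 304 TPM in Vector cells and 478 and 486 TPM in shControl cells (-0.63). TIMM10, a mitochondrial import chaperone, had 140 and 140 TPM in Vector cells and 204 and 194 TPM in shControl cells (-0.51). C6orf52 (-0.64), JOSD2 (-0.60), COMMD2 (-0.52), TPGS1 (-0.52) and POLE4 (-0.50) followed. The calls of C6orf52 and TPGS1 were lost when single libraries were left out.

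Among non-coding RNAs, NEAT1, the scaffold of nuclear paraspeckles on chromosome 11, was looked up after the values were seen. It had 213 and 242 TPM in Vector cells and 76.2 and 85.9 TPM in shControl cells (1.48 ± 0.07 SE, adjusted p = 5.1e-06), and the overexpression libraries were close to Vector with 209 and 213 TPM. Of 20 tested hosts of small nucleolar RNAs, 9 rose (45.0%) and 3 fell, with 4 rising without Vector replicate 2, without shControl replicate 1 or after the median of ratios. GAS5, whose transcript is tied to growth arrest, had 426 and 449 TPM in Vector cells and 299 and 298 TPM in shControl cells (0.55), SNHG6 rose by 0.50 and SNHG9 fell by 0.44. By type, 111 of 508 long non-coding genes rose (21.9%) and 6 fell (1.18%), with a median of 0.19. Of 11116 protein-coding genes, 2412 rose (21.7%) and 974 fell (8.76%), with a median of 0.080. The shares that rose were thus near the 21.4% of all tested genes in both types.

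Short and mitochondrial RNAs need care in poly(A)-selected libraries. SNORD12B, a small nucleolar RNA, had 48.0 and 47.7 TPM in Vector cells and was listed at 0 in both shControl libraries; it was also at 0 in 7 of the other 8 libraries, and its call was lost when any 1 of the 4 libraries was left out. MIR210, a microRNA that hypoxia induces, was listed at 0 in both Vector libraries and had 94.1 and 15.6 TPM in the shControl libraries, a call kept under each setting tried. SNORD97, at 0 in both Vector libraries, had 4.97 and 5.07 TPM in shControl cells, and SNORA24 and SNORA3 were lower in Vector cells too, but these 3 calls were lost when single libraries were left out. The mitochondrial ribosomal RNAs RNR1 and RNR2 were higher in Vector cells, RNR2 having 4630 and 5444 TPM there and 2342 and 2802 TPM in shControl cells (0.97), and RNR1 having 405 and 463 TPM in Vector cells and 246 and 278 TPM in shControl cells (0.72). In the other 8 libraries RNR2 lay between 4025 and 6448 TPM, so the shControl libraries were the low ones. What part this had in the other differences was not tested.

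Both groups expressed most of the 25 plasma cell markers. Plasma cell markers summed to 11900 and 12300 TPM in Vector cells and 11800 and 11900 TPM in shControl cells. The largest was IGJ, with 4550 and 5053 TPM in Vector cells and 4854 and 4850 TPM in shControl cells. All 7 erythroid markers were below 1 TPM in the 4 libraries, and 4 of them were at 0. CD38, a defining surface marker of plasma cells, was low in both, with 0.422 and 0.617 TPM in Vector cells and 0.462 and 0.647 TPM in shControl cells. Low as well were FCRL5 (0.043 and 0.044 TPM in Vector, 0.139 and 0.085 TPM in shControl) and CD27 (0.070 and 0 TPM, 0.067 and 0 TPM). GPRC5D had 0.963 and 0.605 TPM in Vector cells and 1.04 and 0.48 TPM in shControl cells. Among 11 stromal and endothelial markers only PECAM1 exceeded 1 TPM, apart from COL1A1 in shControl replicate 1 (2.172 TPM), and LUM, THY1, CDH5 and KDR were at 0. Epithelial and kidney markers summed to 13.9 and 15.8 TPM in Vector cells and 14.2 and 11.7 TPM in shControl cells, nearly all from EPCAM and KRT18. Myeloid markers summed to 4.09 and 2.67 TPM in Vector cells and 6.29 and 2.95 TPM in shControl cells. The T and NK cell list summed to 235 and 222 TPM in Vector cells and 143 and 143 TPM in shControl cells, nearly all of it from CD7, which had 231 and 218 TPM in Vector cells and 139 and 139 TPM in shControl cells (0.69). CD3D, CD3G and KLRD1 were at 0 in all 4 libraries, whereas CD3E had 3.67 and 3.76 TPM in Vector cells and 3.465 and 3.234 TPM in shControl cells.

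Lower calls were concentrated in abundant genes. Genes were divided into 5 equal groups by mean abundance. In the highest group 19.7% were higher and 25.0% lower in Vector cells, with a median of -0.022. In the lowest group 14.4% were higher and 0.51% lower, with a median of 0.15. By transcript GC content the medians over 5 such groups were 0.11 at the lowest GC and 0.037 at the highest, and by transcript length they lay between 0.055 and 0.12. Over the autosomes and X the median of each chromosome lay between 0.049 and 0.12. The share called higher ran from 16.1% on chromosome 10 to 26.4% on chromosome 18. The share called lower ran from 2.83% on chromosome 13 to 14.4% on chromosome 19. Both of the 2 tested genes of the mitochondrial chromosome rose, with a median of 0.85.

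**Figure D4:**
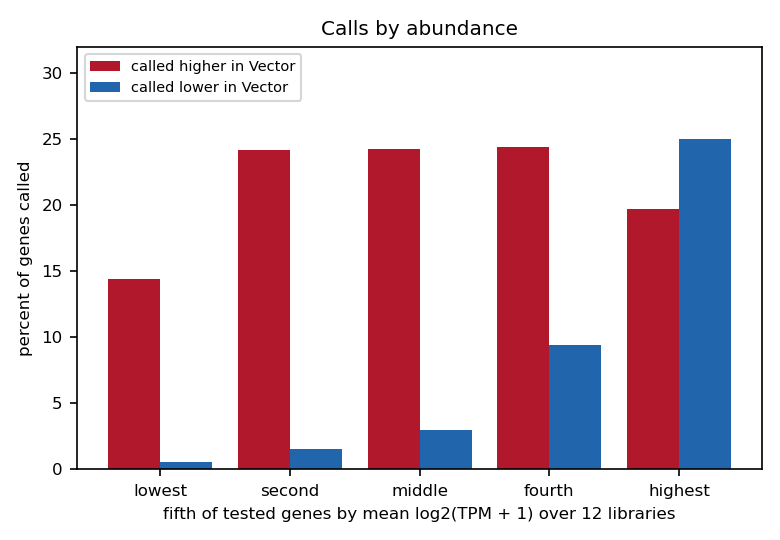
Percent of genes called higher (red) and lower (blue) in Vector cells, in 5 equal groups of the 12731 tested genes ordered by mean log2(TPM + 1) over the 12 libraries. Lower calls are 0.51% in the lowest group and 25.0% in the highest, and higher calls lie between 14.4% and 24.4%.

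The same genes could be compared in libraries that entered neither control group. Overexpression cells carry a vector with a cDNA and sh1 and sh2 cells carry hairpins, so overexpression minus the mean of sh1 and sh2 sets vector cells against hairpin cells again. STK17B also differs there (2.67 log2 units), so that contrast holds its effect too, and the fit shares 1 estimate of the spread. It called 7761 genes (61%), with 5658 higher (44.4%) and 2103 lower (16.5%). Of the 2723 genes higher in Vector cells, 1945 (71.4%) were higher in that contrast and 187 (6.87%) lower, and these 1945 were 34.4% of its higher calls. Of the 1001 genes lower in Vector cells, 554 (55.3%) were lower there and 191 (19.1%) higher, and these 554 were 26.3% of its lower calls.

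Some groups of genes kept their direction in that contrast and others did not. DBP (1.404), NEAT1 (0.93), CTSB (1.26), JUN (1.60), TP53INP1 (1.47), TEX19 (2.10) and CYP1A1 (1.67) were higher in both, and DNLZ (-0.64), IGLL5 (-0.81), PSMA7 (-0.38) and NDUFB9 (-0.64) lower in both. Over all tested genes that contrast called 44.4% higher and 16.5% lower, with a median of 0.15. Of the 32 tested proteasome subunits, 26 fell and 2 rose there, with a median of -0.305. In the interferon list, by contrast, 2 of 30 rose and 11 fell with a median of -0.17, and in the hypoxia list 38 of 39 rose with a median of 0.98. HSPA1B was higher by 0.25, and HSPA1A (0.12) and DNAJB1 (0.02) did not pass.

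**Figure D5:**
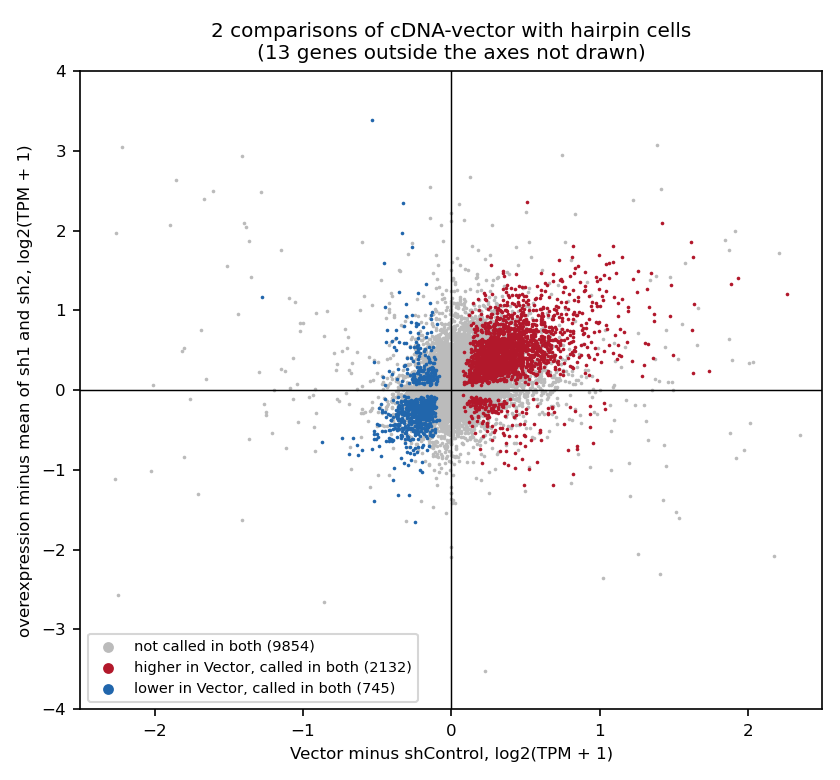
Each point is a tested gene; the horizontal axis is Vector minus shControl and the vertical axis is overexpression minus the mean of sh1 and sh2, both in log2(TPM + 1), and no library enters both axes. Red and blue points were called in both (2499 the same way); 13 genes outside the axes are not drawn.

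Where the other groups fell between the controls depended on the group. For the genes higher in Vector cells, the overexpression mean was nearer to Vector than to shControl in 91.3%, the sh1 mean in 48.5%, the sh2 mean in 50.3% and the inhibitor mean in 27.7%. For the genes lower in Vector cells the shares were 73.0%, 55.1%, 46.0% and 14.1% in the same order. All these shares cover called genes only. The share over all tested genes was not computed, so how far they are particular to the called genes is not known. The distance between the control means (median absolute difference 0.15) was of the order of those between other groups, which ran from 0.083 between sh1 and sh2 to 0.31 between overexpression and inhibitor. Between shControl and the groups usually set against it, the distance was 0.20 for sh1, 0.16 for sh2 and 0.18 for the inhibitor, and between overexpression and Vector it was 0.165. These pairs share control libraries, so the distances are given side by side only.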

How the data were processed

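RNA from KMS11 cells was extracted with RNeasy, selected with oligo(dT), primed with random N6 and sequenced stranded on DNBSEQ, per the labels' protocols. The authors deposited TPM, a single table covering 12 libraries and 29607 genes. In the submitters' processing notes, with no role or order, stand RSEM 1.3.1, HISAT, DESeq2 1.4.5, Bowtie2 2.3.4.3 and the build GRCh38.p13. Depth is unknown because TPM hold none, so no count model was fitted.

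The 12731 genes that reached 1 TPM in 2 or more of the 12 libraries were kept. Values were taken as log2(TPM + 1), and 6 group means were fitted with limma 3.58.1 in R 4.3.3, using eBayes with a mean-variance trend. Contrasts were Vector minus shControl, and overexpression minus the mean of sh1 and sh2. Benjamini-Hochberg adjustment ran over all tested genes, and a call is an adjusted p below 0.05. With 2 libraries against 2 a permutation test cannot go below 0.333, so none was run. Lists were described by counts and medians beside those of all genes; members and the 33 lists (32 with a tested gene) were chosen with earlier results of these data known. Symbols of 24990 genes matched RefSeq, which gave gene types and chromosomes. Promoters are RefSeq, GRCh38.p14; gene coordinates are GENCODE on GRCh38.

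Named genes were STK17B and STK17A, the 15 highest and 15 lowest called protein-coding genes whose libraries did not overlap and whose mean reached 5 TPM in either group, 5 each way that are not protein-coding, the 3 most raised and 3 most lowered called members of each list, the 10 most abundant called genes, the 10 with the largest smaller difference in both contrasts, and all members of the 7SK, small RNA and kinase family lists. Others are stated as looked up, or named to complete a list, after values were seen. Some genes the rule names are not printed.

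Replicate numbers do not pair the libraries: the correlation of replicate differences between groups lay between -0.10 and 0.14, and was 0.00046 between Vector and shControl. Alternatives were other pseudocounts, other filters, only the 4 libraries compared, other scalings, eBayes without trend and robust, a 2-fold limit, a replicate block, and each library left out. On simulated data with known changes for Vector minus shControl, in 12731 genes, 80% of changes of 0.5 log2 units and 100% of those of 1 unit were recovered, and 4.52% of calls were false. The simulation drew each library on its own, so it does not cover a state common to a group's libraries.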

Additional observations from a re-analysis of the deposited data

How the results depend on the processing

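The counts of calls depended mostly on scaling and on single libraries. Vector minus shControl gave 2723 higher and 1001 lower genes as reported. After the median of ratios there were 1874 higher and 1766 lower, and after quantile normalization 1549 higher and 1651 lower; the cause was not tested beyond the median shift of 0.085, which became 0.017 and -0.02. With a 2-fold limit there were 83 and 6, fewer by construction. Leaving out each Vector or shControl library in turn gave between 1468 and 2093 higher and between 587 and 739 lower genes, with fewer samples in the fit. Counts moved by more than 1.5 times without Vector replicate 2 (1468 higher, 627 lower), without shControl replicate 1 (1516 higher, 587 lower) and, for lower genes, without shControl replicate 2 (619). For overexpression minus the mean of sh1 and sh2, the median of ratios gave 3631 lower genes, and quantile normalization gave 3383 higher and 3925 lower. Genes called the same way in both contrasts numbered 2499, and between 1456 and 2610 with a library left out (1456 without Vector replicate 2 and 1459 without shControl replicate 1). The replicate block gave 2563 higher and 968 lower genes, and 2378 called the same way in both; the replicate numbers do not pair the libraries, so this is no test of pairing.

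EEF1A1, a translation elongation factor, was called higher by 0.077 as reported and stood at -0.00044 after the median of ratios. Depth is unknown, and 2 libraries per group limit the precision of every value. Every direction rests on the inferred assignment of the control columns.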
